A study of Mus musculus with 3 samples.

Results

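A set of 10 genes of fibroblast growth factor (FGF) signalling was examined for binding by Tbx4 and Hoxc10 in the mouse hindlimb bud. They were chosen by name, with earlier results of these data known. The set held the ligands Fgf10, Fgf8 and Fgf4, the receptors Fgfr1 and Fgfr2, the inhibitors Spry1, Spry2, Spry4 and Dusp6, and the target gene Etv4. All 10 were found among the 21887 protein-coding genes on the primary chromosomes. Binding had been mapped by chromatin immunoprecipitation with sequencing (ChIP-seq) in hindlimb buds of wild-type CD1 embryos at stage e11.5. One sample used a homemade antibody against Tbx4, a T-box factor of the hindlimb, and 1 an Abcam antibody against Hoxc10, a homeodomain factor from the posterior part of the Hox clusters. A sample with a Santa Cruz antibody against Hoxc10 was not analysed here. The files list binding sites and no expression, so the tissue could not be checked against marker genes, and sites in mesenchyme and ectoderm cannot be told apart.

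FGF signals drive the outgrowth of the limb bud. Fgf10, made in the mesenchyme, acts on the overlying ectoderm mainly through Fgfr2, and the ectodermal ridge answers with Fgf8 and Fgf4, which act back on the mesenchyme, in large part through Fgfr1. The receptors work through the MAP kinase cascade, whose response genes include the Etv factors and the inhibitors of the Sprouty and Dusp families, so that the pathway limits itself. In the mouse, Fgf10 expression is not maintained in hindlimb buds that lack Tbx4.

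Each factor is represented by 1 list of peak summits, single positions on the mouse genome build mm10. The Tbx4 list held 4780 summits and the Hoxc10 list 1614. A gene's domain was the gene itself and the space up to the next protein-coding gene on either side, at most 1 Mb. A summit in a space shared by neighbouring domains counted for each gene. A co-bound pair was a Tbx4 and a Hoxc10 summit at most 200 bp apart. The score beside each summit is the one that the authors deposited, on a −log10 scale, and it was read within its own list only (median 3.67 for Tbx4 and 7.72 for Hoxc10). With 1 list a factor there are no replicates, the read depth is unknown, and no p-value is given.

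The domains of the 10 genes held 17 Tbx4 summits, 9 Hoxc10 summits and 4 co-bound pairs, gathered at a few genes. Fgfr2 had 8 Tbx4 summits, 3 Hoxc10 summits and 1 co-bound pair. Spry2 had 4 Tbx4 summits, 3 Hoxc10 summits and 2 pairs, and Dusp6 had 3 Tbx4 summits, 1 Hoxc10 summit and 1 pair. These 3 genes held 15 of the Tbx4 summits, 7 of the Hoxc10 summits and every pair. Fgfr1 and Spry4 had 1 Tbx4 summit each and no Hoxc10 summit, and Fgf10 and Spry1 had 1 Hoxc10 summit each and no Tbx4 summit. Fgf8, Fgf4 and Etv4 had no summit of either list. That was 3 of the 10 genes, or 30%, against 81% of all protein-coding genes, so an empty domain is the usual case. The ligands thus had a single summit among them, of Hoxc10, and the receptors and inhibitors held the rest. Fgf4 and Fgf8 also had the shortest domains of the 10, 53.2 and 87.2 kb, while Fgf10 had the longest, 948.3 kb.

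**Figure D1:**
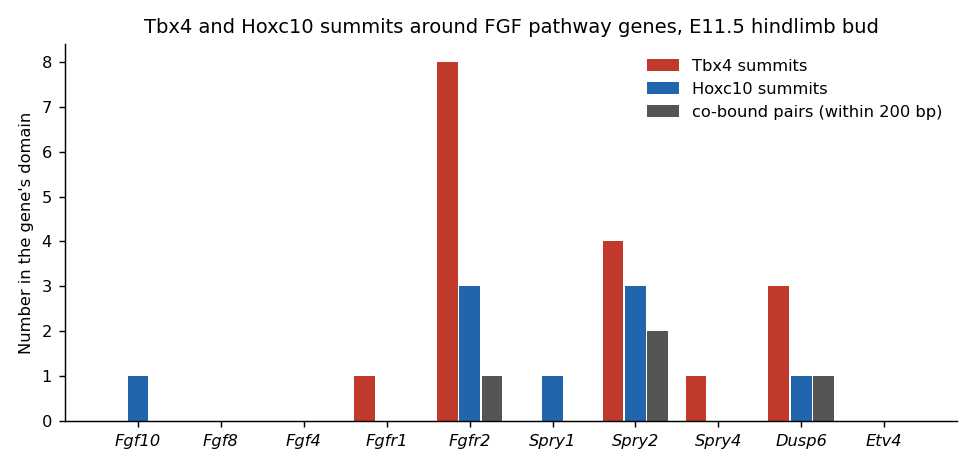
Number of Tbx4 summits, Hoxc10 summits and co-bound pairs (vertical axis) in the domain of each of the 10 genes (horizontal axis), from 1 list a factor. Fgfr2 reaches 8 Tbx4 summits, Spry2 has the most pairs with 2, and Fgf8, Fgf4 and Etv4 are empty.

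The shares below describe genes that were chosen with earlier results of these data known. Of the 10 genes, 5 had a Tbx4 summit, against 17.2% of all protein-coding genes. The count was also 5 for Hoxc10, against 6.83% of all genes. Summits of both factors were found at 3 of the 10, where all genes gave 5%, and a co-bound pair at the same 3, where all genes gave 2.65%. A longer domain has more room for summits, and the domains of these genes were long, with a median of 144 kb against 67.2 kb for all genes. Among genes with a domain of at least 100 kb, 32% had a Tbx4 summit, 16.1% a Hoxc10 summit, 12.5% both and 6.65% a co-bound pair. Of the 10 genes, 8 had such a domain, and 5 of these had a Tbx4 summit, 5 a Hoxc10 summit and 3 a pair. Per length, the 10 domains held 4.55 Tbx4 summits per Mb, against 1.8 per Mb over the domains of all genes. Hoxc10 summits stood at 2.41 per Mb in the 10 domains and at 0.604 per Mb over the domains of all genes. The median number of summits was 0.5 a gene for each factor over the 10 genes, and 0 over all genes.

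**Figure D2:**
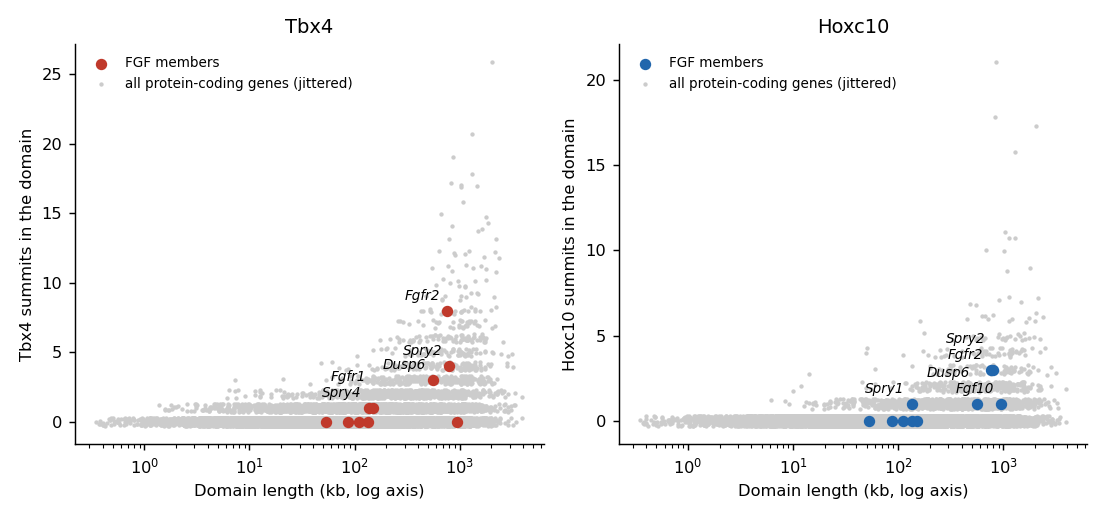
Summits in the domain (vertical axis) against domain length in kb (horizontal log axis) for Tbx4 and Hoxc10, with the 10 FGF genes in colour and all 21887 protein-coding genes in grey, spread a little vertically. Fgfr2, Spry2 and Dusp6 have long domains of 755.8, 796.9 and 559.6 kb, and Fgf10 has the longest of the 10, 948.3 kb, with 1 summit.

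Among the ligands, Fgf10 (chromosome 13, 118714699 to 118792573) had its Hoxc10 summit inside the gene at 118721884, 7185 bp after the transcription start. Its score was 11.45, in the highest 28.2% of the Hoxc10 list. No Tbx4 summit was listed in the 948.3 kb between Mrps30 and Nnt, and the nearest on the lower side lay 730 kb away. No Tbx4 summit was listed between the gene and the end of the chromosome.

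Fgf8 (chromosome 19, 45736491 to 45742941), the main ridge signal, had an empty domain of 87.2 kb between Fbxw4 and Npm3. In the mouse, enhancers of Fgf8 are known to lie inside Fbxw4 and beyond it, so that its regulatory landscape is wider than the domain. Fbxw4 held no summit of either list. A Tbx4 summit with a score of 5.3 lay inside Npm3, 6457 bp from Fgf8, and the nearest Tbx4 summit on the other side lay inside Dpcd, 171 kb away. The nearest Hoxc10 summits were 728 and 981 kb away, inside Sufu and Pax2. Fgf4 (chromosome 7, 144861386 to 144865245), another ridge signal, shares its neighbourhood with Fgf3 and Fgf15, and its domain was the shortest, 53.2 kb. Outside it, a Hoxc10 summit with a score of 18.15 lay 76.2 kb away, beyond Fgf15 and 1636 bp from Ccnd1, which encodes the cell cycle regulator cyclin D1. The nearest Tbx4 summit was 1560 kb away, inside Kcnq1.

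Of the receptors, Fgfr1 (chromosome 8, 25518759 to 25575718) had 1 Tbx4 summit of high rank, and Fgfr2 had many of middle rank. In the Fgfr1 domain of 151.1 kb, between Gm39147 and Letm2, the summit lay inside the gene at 25543638, 24.9 kb from its nearer end. Its score of 31.67 was the highest among the 10 genes and the 106th of the Tbx4 list, in the highest 2.22%. The non-coding gene Gm31288 overlaps the same position, and the nearest Hoxc10 summit was 630 kb from Fgfr1.

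Fgfr2 (chromosome 7, 130162451 to 130266808, transcribed from the higher to the lower coordinate) had a domain of 755.8 kb between Wdr11 and Ate1. Of the 21887 genes, 78, or 0.356%, had 8 or more Tbx4 summits, Fgfr2 included. At least 3 Hoxc10 summits were found at 195 genes, or 0.891%, which include Fgfr2 and Spry2. These shares are over genes of every domain length, and summits between Wdr11 and Fgfr2 count for both. With each summit given to its nearest gene only, Fgfr2 had 5 Tbx4 and 2 Hoxc10 summits. The domain of Fgfr2 was longer than those of 94.2% of all genes, and that of Spry2 longer than those of 94.6%. Inside the gene, Tbx4 summits lay 5876 bp after the transcription start, at 130260932 with a score of 2.94, and at 130182769 with a score of 5.3. Another, at 130161570 with a score of 2.94, lay 881 bp beyond the last base of the gene. The other 5 lay further beyond, at 98 to 507 kb from the gene, and none lay in the 125 kb between the transcription start and Ate1. The Tbx4 scores ran from 2.94 to 6.19, so that none was in the highest 10% of the list.

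The 3 Hoxc10 summits of Fgfr2 all lay beyond its 3′ end. The co-bound pair stood 98 kb from the gene, with the Tbx4 summit at 130064468 (score 6.19) and the Hoxc10 summit at 130064403 (score 7.72), 65 bp apart. Farther out, the Tbx4 summit at 129678528 (score 6.19) and the Hoxc10 summit at 129679310 (score 10.39) were 782 bp apart, inside the non-coding gene Gm33248. The remaining Hoxc10 summit, at 129962810 with a score of 7.72, lay inside the non-coding gene Gm4265, 46921 bp from the nearest Tbx4 summit. No other gene had the same number of Tbx4 summits, Hoxc10 summits and pairs as Fgfr2. Med13l and Magi1 also had 8 Tbx4 and 3 Hoxc10 summits, in longer domains of 1407.42 and 1555.84 kb and with no pair.

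Of the 26 summits, 1 lay in a promoter for which RefSeq sequence of the build GRCm38.p6, the same as mm10, was at hand. This was the Tbx4 summit of the Fgfr2 domain farthest from Fgfr2, at 129655183 with a score of 5.3, in the promoter of the non-coding gene Gm33122. It lay nearer to Wdr11 than to Fgfr2. The 300 bases from 129655157 to 129655456 of chromosome 7 are shown 5′ to 3′ on the minus strand, from 250 bases before to 50 after the start of Gm33122. The capitals mark the 21 bases around the summit, which is base 274 of the window.
Gm33122 promoter: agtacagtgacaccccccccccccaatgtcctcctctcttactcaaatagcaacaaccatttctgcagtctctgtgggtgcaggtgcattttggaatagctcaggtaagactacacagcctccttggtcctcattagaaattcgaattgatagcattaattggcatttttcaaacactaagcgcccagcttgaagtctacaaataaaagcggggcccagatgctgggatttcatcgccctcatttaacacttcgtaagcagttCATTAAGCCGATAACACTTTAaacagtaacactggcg
The T-box half-site AGGTGT, searched on both strands, was not in this window, nor was the posterior Hox sequence TTTATNG. Of 32851 promoter windows of this length, 13.7% held AGGTGT and 10.9% TTTATNG on either strand. None of the 6 genes with a promoter in the same table (Fgf10, Fgf4, Fgfr2, Spry1, Spry2 and Dusp6) had a summit in it. Fgf8, Fgfr1, Spry4 and Etv4 had no entry there.

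**Figure D3:**
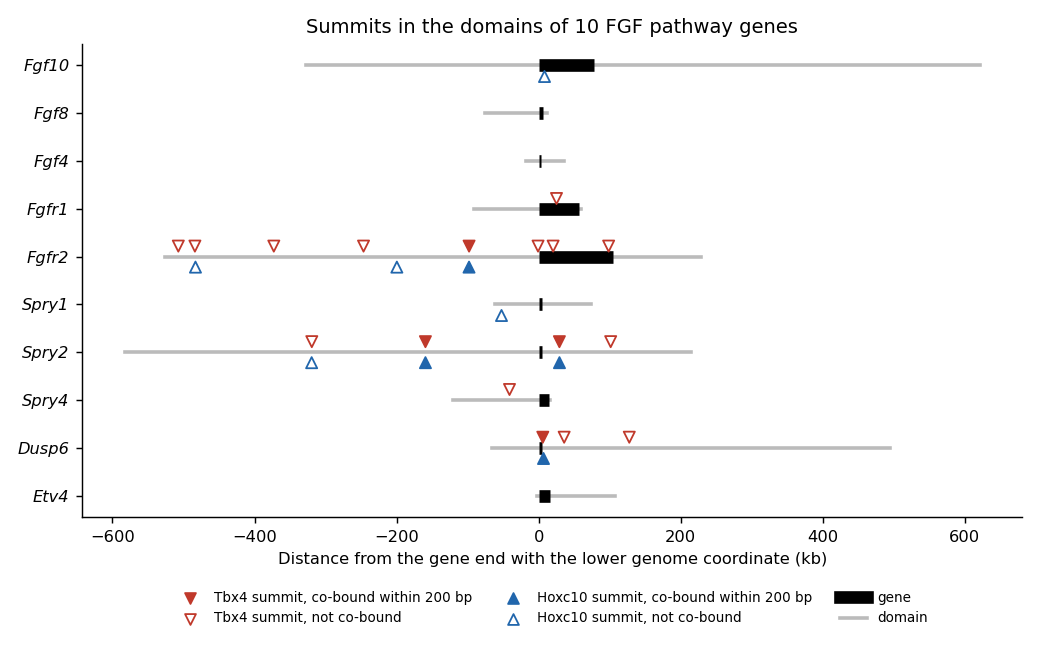
Positions of Tbx4 summits (triangles above the line) and Hoxc10 summits (below) in the domain (grey line) of each of the 10 genes (black bar), as the distance in kb from the gene end with the lower coordinate; filled triangles are co-bound within 200 bp. The summits of Fgfr2 lie inside the gene and to its left, and those of Spry2 on both sides of the gene.

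Among the inhibitors, Spry2 and Dusp6 had several summits and Spry1 and Spry4 1 each. Spry2 (chromosome 14, 105891947 to 105896819, on the minus strand), an inhibitor of receptor signalling, had a domain of 796.9 kb between Ndfip2 and Trim52. Its strongest Tbx4 summit, at 105921120 with a score of 18.38 (the highest 5.48% of the list), lay 24.3 kb before the transcription start, and the Hoxc10 summit at 105921205 (score 8.43) was 85 bp away. A second pair lay 159 kb beyond the 3′ end, where the Tbx4 summit at 105732520 (score 2.94) and the Hoxc10 summit at 105732552 (score 9.16) were 32 bp apart, the closest of the 4 pairs. Another place just missed the limit of 200 bp: the Tbx4 summit at 105572573 (score 3.67) and the Hoxc10 summit at 105572353 (score 12.24) were 220 bp apart, 319 kb from the gene. Within the limit of 200 bp, 2 of the 3 Hoxc10 summits of Spry2 thus had a Tbx4 summit. The fourth Tbx4 summit, at 105993308 with a score of 3.67, stood alone 96.5 kb before the start.

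Dusp6 (chromosome 10, 99263231 to 99267489, on the plus strand), which encodes a phosphatase that inactivates ERK kinases, had 2 of the 4 Tbx4 summits of the 10 genes that were in the highest 10% of their list. The first, at 99269021 with a score of 28.89 (the 124th of the list), lay 1532 bp beyond the 3′ end. A Hoxc10 summit with a score of 7.72 lay 185 bp farther, at 99269206, and both were inside the non-coding gene Gm34921. The second, at 99299088 with a score of 27.52 (the 137th), lay 31.6 kb beyond the gene. Its nearest Hoxc10 summit was the same one at 99269206, 29882 bp away. The last, at 99390781, had a score of 1.63 and the rank 4494 of 4780. At least 3 Tbx4 summits were found at 656 genes, or 3% of all, but the domain of Dusp6 was longer than those of 91.9% of all genes.

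Spry1 and Spry4 are paralogues of Spry2. At Spry1 (chromosome 3, 37639947 to 37644599, on the plus strand) the only summit was of Hoxc10, at 37587242. It lay 52.7 kb before the transcription start and inside the non-coding gene Gm36412. Its score of 16.39 was the highest Hoxc10 score among the 10 genes, in the highest 14.7% of the list. The domain of Spry1 ends at the predicted gene Gm5148, and where predicted genes did not end a domain, Spry1 had 2 Tbx4 and 2 Hoxc10 summits. At Spry4 (chromosome 18, 38586247 to 38601347) the only summit was of Tbx4, at 38544587, 41.7 kb outside the gene, with a score of 3.67. On the higher side the domain reached only 0.269 kb, up to Arhgap26, which held 4 Tbx4 summits. A window of 200 kb to each side of Spry4, which ignores the genes between, held 2 Tbx4 summits. The nearest Hoxc10 summit was 4210 kb from Spry4. Both genes had shorter domains than Spry2, of 135.1 and 136.4 kb against 796.9 kb. Per Mb of domain, Spry2 had 5.02 Tbx4 and 3.76 Hoxc10 summits, Spry4 7.33 and 0, and Spry1 0 and 7.4. The values of Spry4 and Spry1 rest on 1 summit each.

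Etv4 (chromosome 11, 101769747 to 101785310), an ETS factor gene switched on by FGF signals, had an empty domain of 110.2 kb between Dhx8 and Meox1. A co-bound pair lay just past Meox1, a homeobox gene, 116 kb from Etv4. Its Tbx4 summit at 101901511 had a score of 12.42, the 479th of the list. Its Hoxc10 summit, 47 bp away at 101901558, had a score of 14.69, in the highest 18.6% of its list. A window of 200 kb to each side of Etv4, which ignores the genes between, held this pair.

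**Figure D4:**
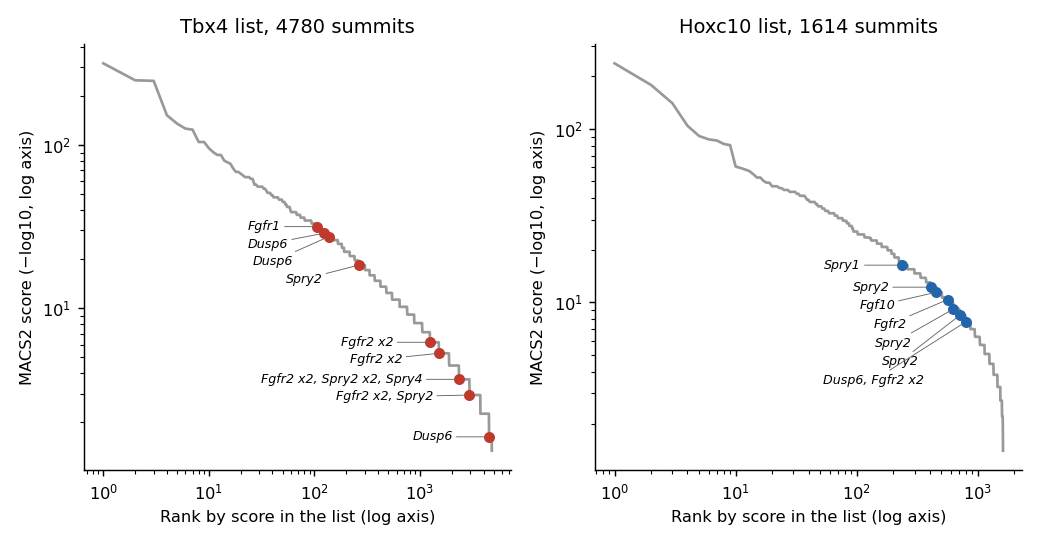
MACS2 score (vertical log axis) against rank (horizontal log axis) for all summits of the Tbx4 list and of the Hoxc10 list (grey lines), with the summits in the domains of the 10 genes as points and their number where several share a value. Fgfr1, Dusp6 and Spry2 have the Tbx4 summits of highest rank, and the Tbx4 summits of Fgfr2 lie between 2.94 and 6.19.

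Tbx4 scores at the 10 genes reached from the bottom to near the top of their list, and Hoxc10 scores stayed in the middle and upper part of theirs. The 17 Tbx4 scores ran from 1.63 to 31.67 with a median of 3.67, equal to that of the list, and 8 were above it. The 9 Hoxc10 scores ran from 7.72 to 16.39 with a median of 9.16, against 7.72 in the list, and 6 were above the list's median. No Hoxc10 summit was in the highest 10% of its list. Of the Tbx4 summits, 4 (23.5%, exact 95% binomial interval 6.81 to 49.9%) had a Hoxc10 summit within 200 bp, against 10.9% of the whole list. Of the Hoxc10 summits, 4 (44.4%, 13.7 to 78.8%) had a Tbx4 summit within 200 bp, against 32.1% of the list. The intervals cover counting error only and treat the summits as independent. Since Fgfr2, Spry2 and Dusp6 held most of the summits and every pair, the intervals are likely too narrow. They include the shares of the lists, and no difference was tested. In the pairs, the Tbx4 scores were 28.89, 18.38, 6.19 and 2.94 and the Hoxc10 scores between 7.72 and 9.16.

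Most summits lay outside the genes. Of the 17 Tbx4 summits 3, or 17.6%, were inside Fgfr1 or Fgfr2, and 1 of the 9 Hoxc10 summits, 11.1%, was inside Fgf10. Over the whole lists 46.5% of Tbx4 and 38.9% of Hoxc10 summits were inside a protein-coding gene, some of which are neighbours that a domain leaves out by definition. The median distance to the nearer end of the gene was 96.5 kb for Tbx4 and 98 kb for Hoxc10. Within 1 kb of an end of its own gene lay 1 of the 17 Tbx4 summits (5.88%), that past the end of Fgfr2, and 0 of the 9 Hoxc10 summits. Of the whole lists, 12.8% of Tbx4 and 5.02% of Hoxc10 summits lay within 1 kb of an end of any protein-coding gene. Inside non-coding genes of any kind lay 5 of the 17 Tbx4 summits (29.4%, that at Fgfr1 included) and 4 of the 9 Hoxc10 summits (44.4%). For the whole lists only genes of long non-coding RNA, a narrower class, were counted. They held 13.6% of Tbx4 and 13.8% of Hoxc10 summits, so the shares are not directly comparable.

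The peak names carry running numbers that rise along each chromosome. The listed summits come to 10.6% of the highest listed number for Tbx4 and to 40.1% for Hoxc10. Gaps between the numbers on either side of a domain show how many numbered peaks of the stretch were not kept. At Spry1 the Tbx4 summits on either side, inside Spata5 and 253 kb above the gene, had consecutive numbers, so that no numbered Tbx4 peak lay between them. At Fgf4 the Hoxc10 summits on either side had consecutive numbers. At Fgf8, 11 Tbx4 and 2 Hoxc10 numbers between the flanking summits were not kept, at Etv4 4 Tbx4 and 2 Hoxc10 numbers, and up to the end of the chromosome at most 50 Tbx4 and 26 Hoxc10 numbers at Fgf10 and at most 39 Tbx4 numbers at Fgf4. At the genes with most summits, 18 Tbx4 and 6 Hoxc10 numbers were not kept at Fgfr2, 62 and 10 at Spry2 and 15 and 2 at Dusp6. These counts cannot be compared between genes, since the stretches differ in length: for Tbx4 they ran over 184 kb at Fgf8, 401 kb at Spry1, 1390 kb at Fgfr2 and 2390 kb at Spry2, and for Hoxc10 over 1720 kb at Fgf8, 2390 kb at Fgf4 and 7220 kb at Spry2. Where in these stretches they lay, and why they were not kept, could not be read from the lists.

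The wider FGF pathway was counted in the same way, from lists of Fgf genes, receptors, feedback genes and targets. Of the 22 Fgf genes, with Fgf11 to Fgf14 included, 5 (22.7%) had a Tbx4 summit and 4 (18.2%) a Hoxc10 summit. The shares were 17.2% and 6.83% of all genes, and 16 of the Fgf genes had neither, as had 81% of all genes. The Tbx4 share of the Fgf genes was near that of all genes. Fgf18, which acts on cartilage and bone, had 4 Tbx4 summits and 1 Hoxc10 summit with a pair 37 bp apart, 191 kb from the gene (scores 4.46 and 3.83). Fgf9 had 1 Tbx4 and 2 Hoxc10 summits with a pair 75 bp apart and 875 kb from the gene, Fgf12 had 2 Tbx4 and 1 Hoxc10 summit with no pair, and Fgf1 and Fgf7, which lie within Arhgap26 and Fam227b, had 1 Tbx4 summit each. Of the 5 receptors and co-receptors besides Fgfr1 and Fgfr2, only Fgfr3, a brake on growth plate cartilage, had a summit, of Hoxc10 with a score of 18.15.

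Of 16 feedback genes, 9 had a Tbx4 summit and 5 a Hoxc10 summit, or 56.2% and 31.2%, beside 22.7% and 18.2% of the Fgf genes. The shares were 17.2% and 6.83% over all genes, and 32% and 16.1% over genes with a domain of at least 100 kb. The domains of the feedback genes were longer than those of the Fgf genes, with a median of 128 kb against 94 kb, and the difference between the lists was not tested. Among the 12 besides Spry1, Spry2, Spry4 and Dusp6, 6 (50%) had a Tbx4 summit and 2 (16.7%) a Hoxc10 summit. That Hoxc10 share was near the 16.1% of genes with a long domain. Spred2, a relative of the Sprouty genes, had 6 Tbx4 summits and 1 Hoxc10 summit, with a pair 42 bp apart (scores 8.12 and 3.83), 314 kb from Spred2 in the space between it and Meis1, which counts for both genes. Flrt2, a membrane protein of the family that binds FGF receptors, had 5 Tbx4 summits, the highest with a score of 20.91. Dusp7 had 2 Tbx4 summits, Il17rd, an inhibitor of FGF receptor signalling, 1 of each factor, and Dusp4 1 Tbx4 summit. Besides Etv4, the list of targets held Etv1 with 1 Tbx4 and 2 Hoxc10 summits and Etv5 with 1 Tbx4 summit.

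**Figure D5:**
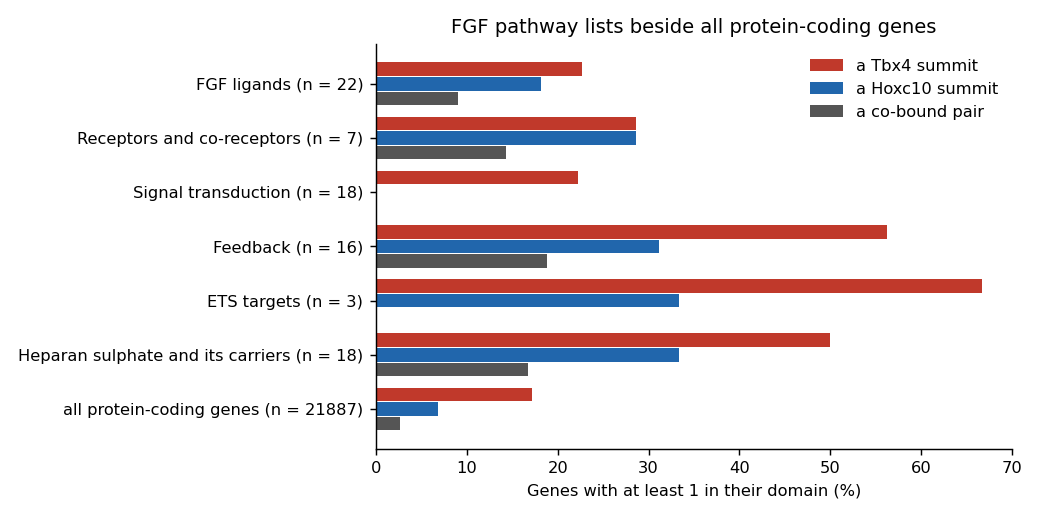
Share of genes in percent (horizontal axis) with at least 1 Tbx4 summit, Hoxc10 summit or co-bound pair in their domain, for 6 FGF pathway lists and all protein-coding genes (vertical axis). Feedback genes stand at 56.2% for Tbx4 and 31.2% for Hoxc10, and all genes at 17.2% and 6.83%. The list labelled FGF ligands is that of all Fgf genes.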

How the data were processed

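Per the submitters' processing notes, reads were aligned with Bowtie2 2.2.6, peaks called with MACS2 2.1.1.20160309 and HOMER used, on mm10. The deposited files list 1 bp summits with a score, a −log10 value of MACS2; whether it is of a p-value or a q-value is not stated. Neither the control library nor the way summits were selected is given in the sources used here. The name of the Hoxc10 list may mean a limit to summits near Santa Cruz peaks.

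Genes and promoters came from RefSeq tables of GRCm38.p6; strand was known where a promoter was listed. Genes wholly inside another did not end its domain. Summits, pairs and numbers were counted with Python 3.11.15 and pandas 2.3.3. Counting was checked on planted summits. No set test or p-value was computed. The genes and lists were chosen with earlier results of these data known. Named from each list are up to 5 genes with the most summits, of which 1 is not reported here; the genes alike to Fgfr2 in 2 counts were added after seeing the values, as none matched in 3. Alternatives changed the domain, the score limit and the pair distance.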

Additional observations from a re-analysis of the deposited data

How the results depend on the processing

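Of 55 alternative counts for the 10 genes together, 48 stayed within 1.5 times the reported count. With a reach of at most 100 kb, 10 Tbx4 summits and 5 Hoxc10 summits were left, since far summits of Fgfr2, Spry2 and Dusp6 fell out: Fgfr2 kept 4 Tbx4 and 1 Hoxc10 summit, Spry2 2 and 1 with 1 pair, and Dusp6 2 Tbx4 summits. With the Tbx4 list limited to the length of the Hoxc10 list (scores of 5.3 or more, 1876 summits with ties), 8 Tbx4 summits were left: Fgfr2 had 4, Spry2 1 with 1 pair, Dusp6 2, Fgfr1 1 and Spry4 0. At 50 bp, 1 pair remained, at 1 gene, Spry2. With a fixed window of 200 kb that ignores neighbouring genes, 8 genes had a Tbx4 summit and 5 had both factors. Fgf8, Fgfr1, Spry1 and Spry4 then had 2 Tbx4 summits each, Fgfr2 4 Tbx4 summits and Fgf4 1 Hoxc10 summit. Etv4 had 1 Tbx4 summit, 2 Hoxc10 summits and 1 pair. Where predicted genes did not end a domain, 6 genes had a Tbx4 summit: Spry1 then had 2 Tbx4 and 2 Hoxc10 summits and Fgfr1 2 Tbx4 summits. When each summit was given to the nearest gene only, Fgfr2 had 5 Tbx4 summits and Spry1 no Hoxc10 summit. No paired analysis was possible because each factor has 1 list. Depth is unknown, so an empty domain does not show that the gene was unbound.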

Other observations

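Heparan sulphate, the sugar chain that FGF ligands need to bind their receptors, is made and carried by another group of genes. Of 18 such genes, 9 (50%) had a Tbx4 summit and 6 (33.3%) a Hoxc10 summit, beside 17.2% and 6.83% of all genes and 32% and 16.1% of genes with a domain of at least 100 kb. The median length of their domains was 332 kb. The neighbouring glypican genes Gpc5 and Gpc6 had 4 and 3 Tbx4 summits and 3 and 2 Hoxc10 summits, each with a pair inside the gene, 83 and 68 bp apart. Sulf1, which trims heparan sulphate outside the cell, had 4 Tbx4 summits and 1 Hoxc10 summit with a pair 640 kb from the gene. That pair lay in the space between Sulf1 and A830018L16Rik, which had the same counts. Sulf2 and Ndst1 each had 2 Tbx4 summits and 1 Hoxc10 summit with no pair.

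Of 18 genes of signal transduction inside the cell, 4 (22.2%) had Tbx4 summits, beside 17.2% of all genes, and 0 a Hoxc10 summit, beside 6.83% of all genes. Shares this near those of all genes are no result about the group. Nras, Shc1 and Sos2 had 1 Tbx4 summit each. At Nras the Tbx4 summit lay 111 bp inside the gene, with a score of 8.12, and at the ligand Fgf7 122 bp inside it, with a score of 2.94.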
